A study of Lactuca sativa with 6 samples.

Results

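In a lettuce leaf transcriptome, 6 clusters of transcripts carry names from the synthesis, inactivation and signalling of cytokinins, and they are described here together as 1 pathway. They are an isopentenyltransferase (IPT3, Cluster-9839.0), a cytokinin phosphoribohydrolase (LOG3, Cluster-15809.14844) and a cytokinin hydroxylase (Cluster-16226.0, which the study also names CYP735A). The others are a zeatin O-glucosyltransferase (ZOG, Cluster-3690.0), a histidine kinase (CKI1, Cluster-15809.3160) and a B-type response regulator (ARR-B, Cluster-14748.0). These 6 of the 39253 clusters in the count table were chosen by the identifiers under which the study lists them as deregulated hormone genes. The choice therefore rests on measured values: 5 were taken from the comparison of LsCv with LsSq, and ARR-B from the comparisons of both extracts with LsCK. Their differences in those comparisons are given as a description, and where calls of a tool are counted there, nothing is read from the counts.

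Seedlings of *Lactuca sativa* from a nursery, 10 to a box of pumice, were irrigated with 500 mL of Hoagland nutrient solution that carried an extract of the green microalga *Chlorella vulgaris* (LsCv) or *Scenedesmus quadricauda* (LsSq) at 1 mg of organic carbon per litre. Untreated seedlings (LsCK) received the same volume of Hoagland solution alone. All were acclimatized for 6 days at a 16-h photoperiod, and leaves were taken 4 days after treatment. Each group has 2 poly-A RNA libraries, fewer than the biological replicates that the study describes per treatment. The sources used here do not say how many seedlings or which boxes went into a library. The p-values therefore measure the spread between these libraries, which may be technical.

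Cytokinins are adenine-derived hormones that promote cell division, keep leaves green and move nutrients towards growing tissue. Isopentenyltransferases attach the side chain to an adenine nucleotide, cytochrome P450 enzymes of the CYP735A family hydroxylate that side chain to give zeatin-type forms, and LOG enzymes release the active free base. O-glucosyltransferases store zeatin in an inactive form. The signal runs from histidine kinases through phosphotransfer proteins to the B-type response regulators, which switch on transcription in the nucleus.

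The total expected count per library ranged from 26408716 to 35184764. LsCK replicate 2 stood apart: 1415 clusters had at least 10 counts there and 0 in the other 5 libraries, whereas such clusters numbered 31 to 174 in each of the other libraries. Fold changes or bounds of the cytokinin clusters against LsCK are therefore also given without it. LsCv replicate 1 differed in composition, with a TMM scaling factor of 0.835 against 0.994 to 1.09 in the other libraries. Its top 10 clusters held 6.79% of the counts, against 3.54% to 4.54% in the others. All 6 cytokinin clusters passed the filter on low counts that left 28157 clusters for the test. IPT3 had at least 10 counts only in LsSq replicate 1 (146) and LsCK replicate 1 (20). Levels are given as CPM, the expected count over the TMM-scaled library total, and they are compared between libraries only, because cluster lengths were not used here. In these bulk leaf samples, fewer cells with a transcript and less of it per cell cannot be told apart. The identity of the leaf cells was not checked, since none of the cluster names used here marks a leaf cell type.

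IPT3, the enzyme of the first committed step of cytokinin synthesis, was found at low levels and depended on a single library. It had 0 and 0 counts in the LsCv libraries, 146 and 5 counts in the LsSq libraries, and 20 and 5 counts in the LsCK libraries. These counts correspond to 0 and 0 CPM in LsCv, 4.76 and 0.170 CPM in LsSq, and 0.572 and 0.175 CPM in LsCK. Both LsCv libraries lay below all others, and only LsSq replicate 1 was clearly above the controls. LsSq replicate 2 and LsCK replicate 2 had the same 5 counts, with an exact 95% Poisson interval of 1.62 to 11.7 counts, which covers counting error only. That interval reaches below 3 counts, which is used here as the floor of a library with 0 counts (0.111 and 0.100 CPM in LsCv). A difference of LsCv from these libraries was therefore not detectable at this depth. Between the replicates of LsSq the log2 ratio of CPM + 0.5 was 2.97, a value reached in size by 0.174% of the tested clusters.

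With LsCv set to the floor of 3 counts per library, IPT3 was at least 3.54-fold lower in LsCv than the mean of LsCK as measured (edgeR quasi-likelihood test, adjusted p = 0.573, unadjusted p = 0.0523). This bound rests on LsCK replicate 1, against which alone it was 5.43-fold, and against LsCK replicate 2 alone no bound is given. Against the mean of LsSq it was 23.4-fold, which rests on LsSq replicate 1, and no bound is given against LsSq replicate 2. Neither bound includes the counting error of the LsCK and LsSq libraries. In LsSq versus LsCK the fitted log2 fold change was 2.70 (SE 1.55, edgeR adjusted p = 0.962). Without LsSq replicate 1 it turned to -1.12, so that the sign depended on that library, and without LsCK replicate 2 it was 2.09.

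LOG3, the activating enzyme, was highest in LsSq. It reached 4.70 and 9.44 CPM in LsCv, 21.3 and 19.3 CPM in LsSq, and 6.96 and 13.5 CPM in LsCK. Both LsSq libraries lay above the 4 others, whereas LsCv and LsCK overlapped. The log2 fold change was 0.99 (SE 0.47) in LsSq versus LsCK, with an edgeR adjusted p of 0.962 and an unadjusted p of 0.0741. Without LsCK replicate 2 this value rose to 1.54, and without LsCK replicate 1 it fell to 0.55. It was -0.53 (SE 0.47) in LsCv versus LsCK, with an edgeR adjusted p of 0.738, and without LsCK replicate 2 it was 0.012. The difference that selected LOG3, LsCv versus LsSq, was -1.52 (SE 0.47) on the log2 scale. In 4 of the 6 libraries its expected count was not a whole number, as RSEM gives where reads match more than 1 transcript, and its Corset number is shared with 16038 other clusters. CKI1 shares the same Corset number but had whole counts in all 6 libraries, and IPT3, CYP735A, ZOG and ARR-B have no other cluster under their number.

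**Figure D1:**
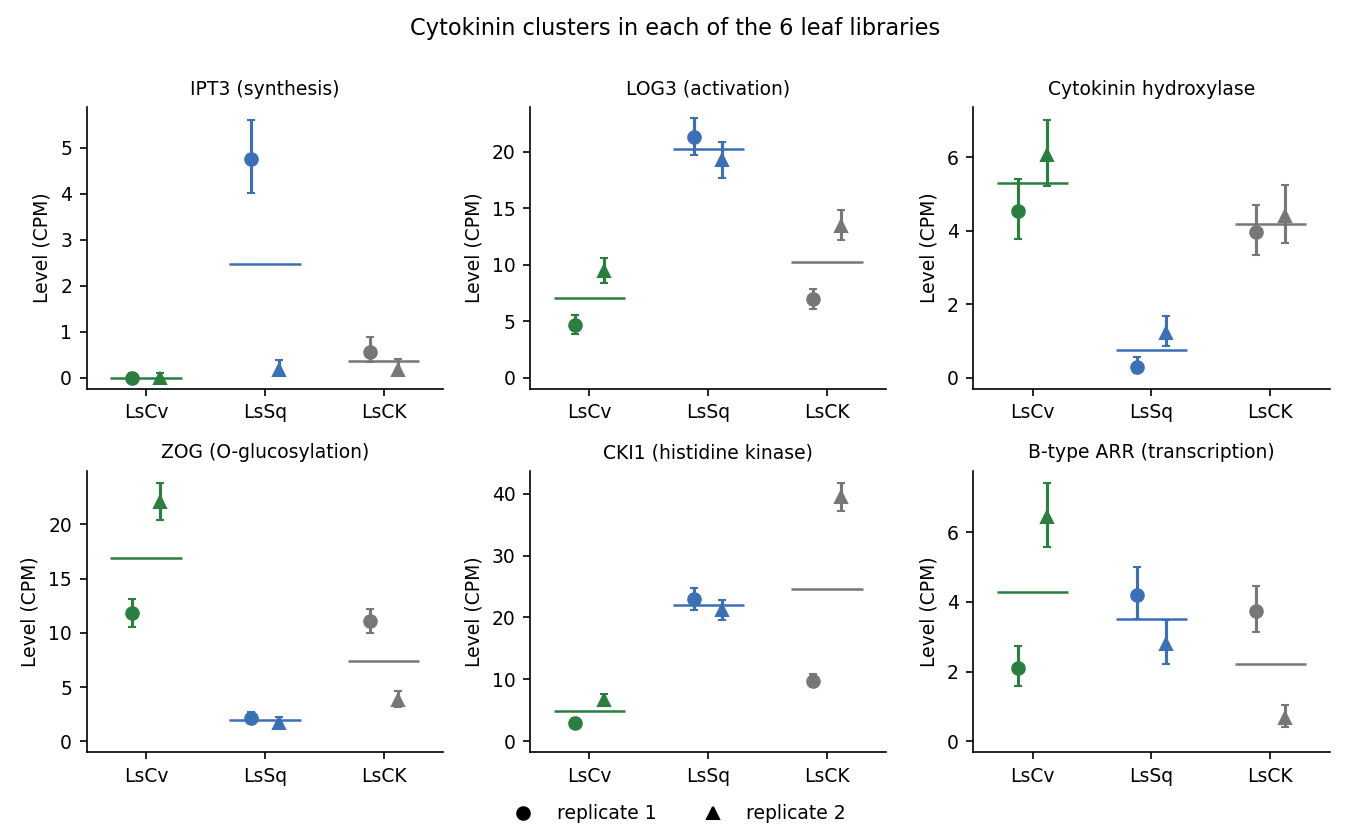
Levels of the 6 cytokinin clusters (CPM, vertical axes starting just below 0) in each LsCv, LsSq and LsCK library. Points are libraries (circle, replicate 1; triangle, replicate 2), bars are exact 95% Poisson intervals of the counts, or end at the floor of 3 counts where a library had 0, and cover counting error only, and horizontal lines are group means; LsSq had the highest LOG3 and the lowest hydroxylase and ZOG, and the LsCK libraries lay far apart for ZOG, CKI1 and ARR-B.

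The cytokinin hydroxylase CYP735A, which turns isopentenyl-type into zeatin-type cytokinins, was low in LsSq and higher in the other groups. Its levels were 4.55 and 6.07 CPM in LsCv, 0.293 and 1.23 CPM in LsSq, and 3.98 and 4.40 CPM in LsCK. The LsSq libraries, with 9 and 36 counts, lay below the 4 others, where 123 to 182 counts were found. In LsSq versus LsCK the log2 fold change was -2.46 (SE 0.69, unadjusted p = 0.0102, edgeR adjusted p = 0.962), and it ranged from -3.82 to -1.77 as each library was left out. The lower end was without LsSq replicate 2 and the upper end without LsSq replicate 1. CYP735A was chosen on LsCv versus LsSq, which shares the LsSq libraries, so this range lends no separate support. Without LsCK replicate 2 the value was -2.39. In LsCv versus LsCK the log2 fold change was 0.34 (SE 0.64, edgeR adjusted p = 0.885). This value was 0.40 without LsCK replicate 2 and 0.28 without LsCK replicate 1. The LsCv libraries lay above both controls, but LsCv replicate 1 was inside the Poisson interval of LsCK replicate 2 (3.67 to 5.24 CPM).

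ZOG, which places a glucose on zeatin, followed the hydroxylase in its order of groups. It reached 11.8 and 22.1 CPM in LsCv, 2.15 and 1.70 CPM in LsSq, and 11.1 and 3.81 CPM in LsCK. The groups did not overlap, although LsCv replicate 1 and LsCK replicate 1 were nearly level. In LsSq versus LsCK the log2 fold change was -1.95 (SE 0.60, unadjusted p = 0.0149, edgeR adjusted p = 0.962), and in LsCv versus LsCK it was 1.18 (SE 0.58, unadjusted p = 0.0803, edgeR adjusted p = 0.595). Both values moved with the control used: without LsCK replicate 1 the log2 fold change was -1.01 in LsSq and 2.16 in LsCv, and without LsCK replicate 2 it was -2.52 in LsSq and 0.60 in LsCv. In the selecting comparison, LsCv versus LsSq, the log2 difference was 2.80 (SE 0.70) for CYP735A and 3.13 (SE 0.62) for ZOG.

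CKI1, a histidine kinase that in *Arabidopsis* activates cytokinin signalling without binding the hormone, was lowest in LsCv. It had 2.99 and 6.64 CPM in LsCv, 22.9 and 21.2 CPM in LsSq, and 9.79 and 39.4 CPM in LsCK. The LsCv libraries lay below all others, and the LsSq libraries stood between the controls. The log2 ratio of LsCK replicate 1 to replicate 2 was -1.96 for CPM + 0.5, and 4.19% of the tested clusters had a ratio of that size or more in LsCK. In LsCv versus LsCK the log2 fold change was -2.35 (SE 0.70, unadjusted p = 0.0130, edgeR adjusted p = 0.533). It was -1.03 without LsCK replicate 2 and -3.02 without LsCK replicate 1. In LsSq versus LsCK it was -0.16 (SE 0.66, edgeR adjusted p = 0.991), and without LsCK replicate 2 the sign turned, to 1.17. The selecting difference, LsCv versus LsSq, was -2.19 (SE 0.70).

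ARR-B, a transcriptional activator at the end of the pathway, matched the lettuce gene ARR2-like in the annotation of the study. Its levels were 2.11 and 6.44 CPM in LsCv, 4.21 and 2.79 CPM in LsSq, and 3.75 and 0.663 CPM in LsCK. LsCK replicate 1 lay within the range of the treated libraries, and LsCK replicate 2, with 19 counts, below all of them. In the comparisons that selected it, the log2 fold change was 0.95 (SE 0.88) in LsCv versus LsCK and 0.66 (SE 0.88) in LsSq versus LsCK. Without LsCK replicate 2 the value was 0.18 in LsCv and -0.10 in LsSq, and without LsCK replicate 1 it was 2.69 in LsCv and 2.36 in LsSq. LsCv replicate 2 weighed on it as well, since without that library the value of LsCv versus LsCK was -0.076. The comparison that was not used to select ARR-B, LsCv versus LsSq, gave a log2 fold change of 0.29 (SE 0.87, edgeR adjusted p = 0.889), and the libraries of the extracts overlapped. It was -0.73 without LsCv replicate 2.

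**Figure D2:**
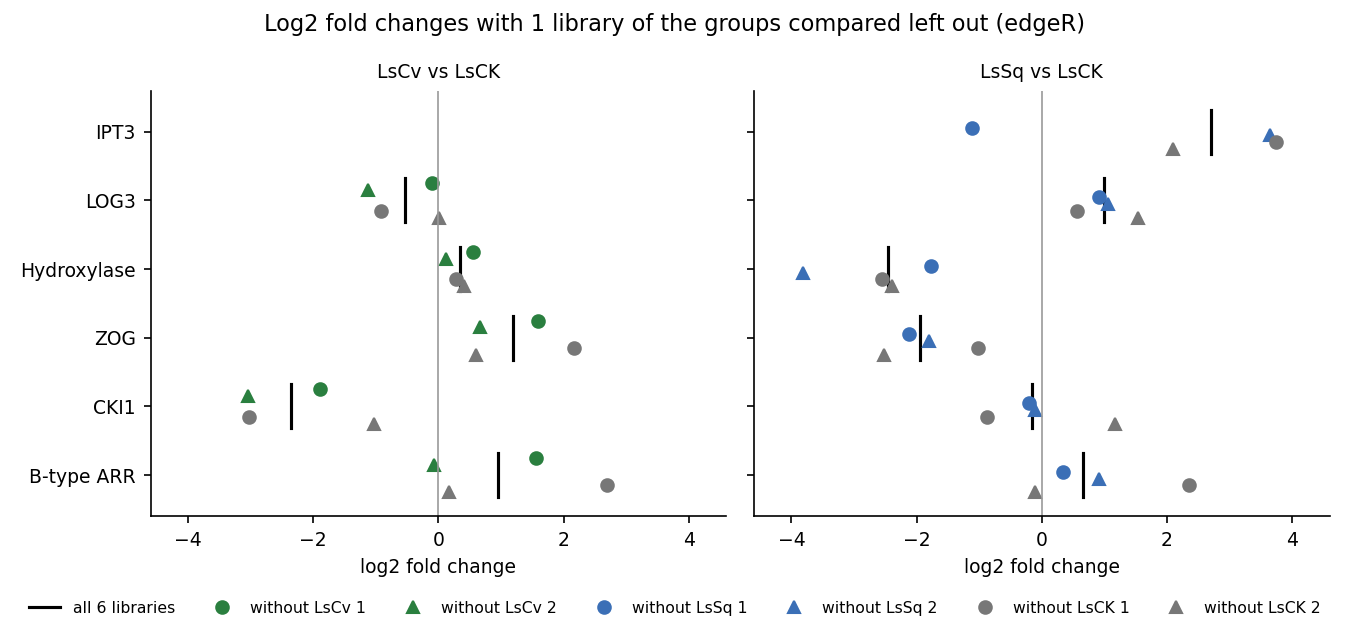
Log2 fold changes (horizontal axes) of LsCv and LsSq against LsCK with all 6 libraries (black lines) and with 1 library of the groups compared left out (points, coloured by the group of the library left out). Without LsCK replicate 2 the values of ARR-B were 0.18 and -0.10, and without LsCK replicate 1 they were 2.69 and 2.36; IPT3 is not drawn against LsCv, where it had 0 counts.

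Across the pathway, edgeR's quasi-likelihood test called 0 of the 6 cytokinin clusters in LsCv versus LsCK and 0 of 6 in LsSq versus LsCK at an adjusted p of 0.05, where 0% of all tested clusters passed in either comparison. At an unadjusted p under 0.05, CKI1 was lower in LsCv versus LsCK, 1 of 6 clusters against 8.73% of all tested clusters (6.34% lower and 2.39% higher). In LsSq versus LsCK, CYP735A and ZOG were lower at that level, 2 of 6 clusters against 4.65% of all (2.43% lower and 2.23% higher). DESeq2, with either choice of libraries, also called 0 of 6 in both comparisons, against 1.53% and 0.713% of all clusters with an adjusted p in LsCv versus LsCK and 0.477% and 0.616% in LsSq versus LsCK (all 6 libraries first, then those of the groups compared). The 5 clusters picked for a difference between the extracts share the treated libraries with these comparisons, so the counts lend no separate support. These counts changed as single libraries were left out, and so did the share of all tested clusters with an unadjusted p under 0.05. ARR-B, chosen on both comparisons, is not counted in the rest of this paragraph. Without LsCK replicate 1, CKI1 (lower) and ZOG (higher) were under that p in LsCv versus LsCK, with 18.7% of all clusters, and CYP735A (lower) was in LsSq versus LsCK, with 7.81% of all. Without LsCK replicate 2, 0 of the other 5 were under it in LsCv versus LsCK, with 4.33% of all clusters, and CYP735A and ZOG (lower) and LOG3 (higher) were in LsSq versus LsCK, with 9.57% of all. Without LsCv replicate 1, 0 of these 5 were under it in LsCv versus LsCK, with 4.97% of all clusters. Without LsSq replicate 1, CYP735A alone was under it in LsSq versus LsCK, with 0.852% of all clusters. Without LsSq replicate 2, CKI1 and IPT3 (lower) were under it in LsCv versus LsCK, with 4.66% of all clusters, and CYP735A (lower) and IPT3 (higher) in LsSq versus LsCK, with 1.84% of all.

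The libraries of LsCv and LsCK did not overlap in 4 of the 6 clusters, IPT3 and CKI1 (lower) and CYP735A and ZOG (higher), where 36.6% of all tested clusters were apart (20.7% lower and 15.9% higher). Between LsSq and LsCK, LOG3 (higher) and CYP735A and ZOG (lower) were apart, 3 of 6 against 38.6% (21.6% higher and 17.1% lower). A two-sided exact permutation of 2 libraries against 2 has 0.333 as its smallest p, so that non-overlap alone cannot pass the threshold. For CYP735A and ZOG, LsCv replicate 1 lay inside the Poisson interval of a control library. The median log2 fold change of the 6 clusters was -0.09 in LsCv versus LsCK and 0.25 in LsSq versus LsCK, beside -0.03 and -0.0011 over all tested clusters. ARR-B, chosen on both comparisons, is included in these counts and medians. The other 5 clusters were picked for a difference between the extracts, which shares the treated libraries. Nothing is therefore read from the counts or medians.

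Between LsCv and LsSq, the contrast that chose 5 of the 6 clusters, LOG3, CKI1 and IPT3 were lower and CYP735A and ZOG higher in LsCv, without overlap of the libraries. Over all tested clusters 55.4% were apart there (24.1% higher and 31.3% lower), and 16.0% had an unadjusted p under 0.05 (6.26% higher and 9.71% lower). edgeR called 0 of the 6 clusters at an adjusted p of 0.05, where 0% of all passed. DESeq2 called 3 of 6 with all 6 libraries in the fit, against 5.50% of all clusters, and 5 of 6 with the LsCv and LsSq libraries only, against 10.8%. These counts follow the choice of the clusters.

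**Figure D3:**
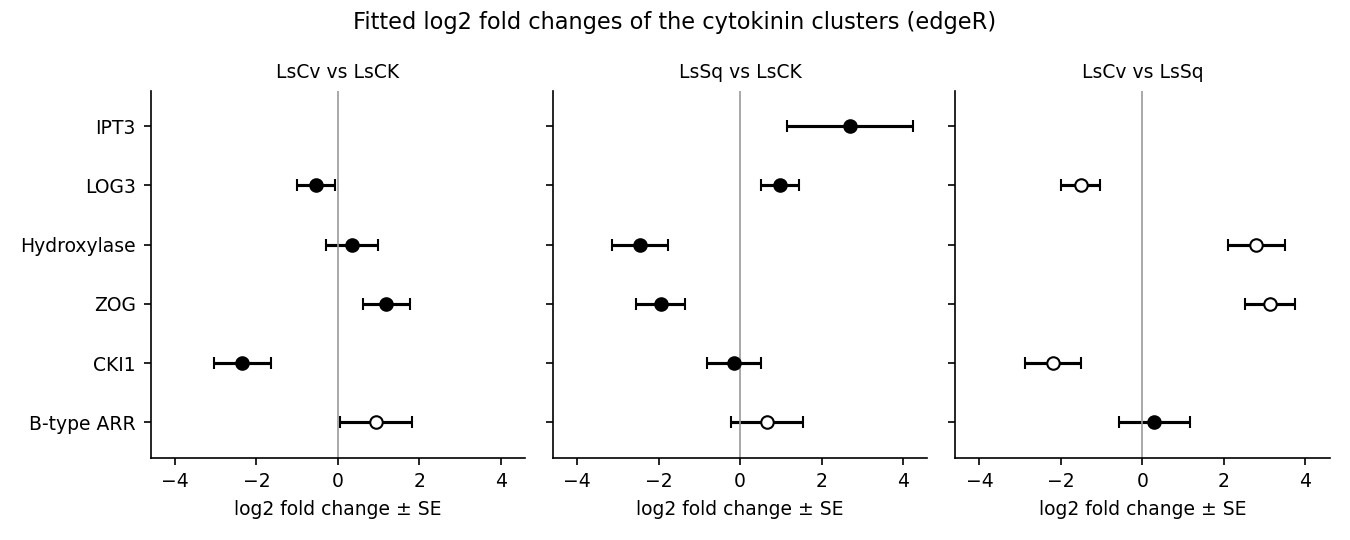
Log2 fold changes of edgeR (horizontal axes), with standard errors derived from the F of its test, for the cytokinin clusters in 3 comparisons. Open circles mark the comparison on which a cluster was chosen, filled circles the others; in LsSq versus LsCK the hydroxylase was at -2.46 and ZOG at -1.95, and IPT3 is not drawn where LsCv had 0 counts.

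Ratios of clusters within a library do not depend on the scaling between libraries. With 0.5 counts added to each, the log2 ratio of ZOG to LOG3 counts was 1.32 and 1.22 in the LsCv libraries, -3.30 and -3.49 in the LsSq libraries, and 0.67 and -1.82 in the LsCK libraries. The replicates of each extract were close, and the controls lay between the extracts, far from each other. For the hydroxylase over LOG3 the log2 ratio was -0.05 and -0.64 in LsCv, -6.10 and -3.95 in LsSq, and -0.80 and -1.61 in LsCK. Here too both controls lay between the extracts, nearer to LsCv. The log2 ratio of ZOG to the hydroxylase, both lower in LsSq, averaged 1.62 ± 0.35 in LsCv, 1.64 ± 1.65 in LsSq and 0.63 ± 1.19 in LsCK (SD, n = 2 each), and these ranges overlapped. Because cluster lengths enter a ratio, only its differences between libraries can be read, and the separation of LsCv from LsSq follows from the choice of the clusters.

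**Figure D4:**
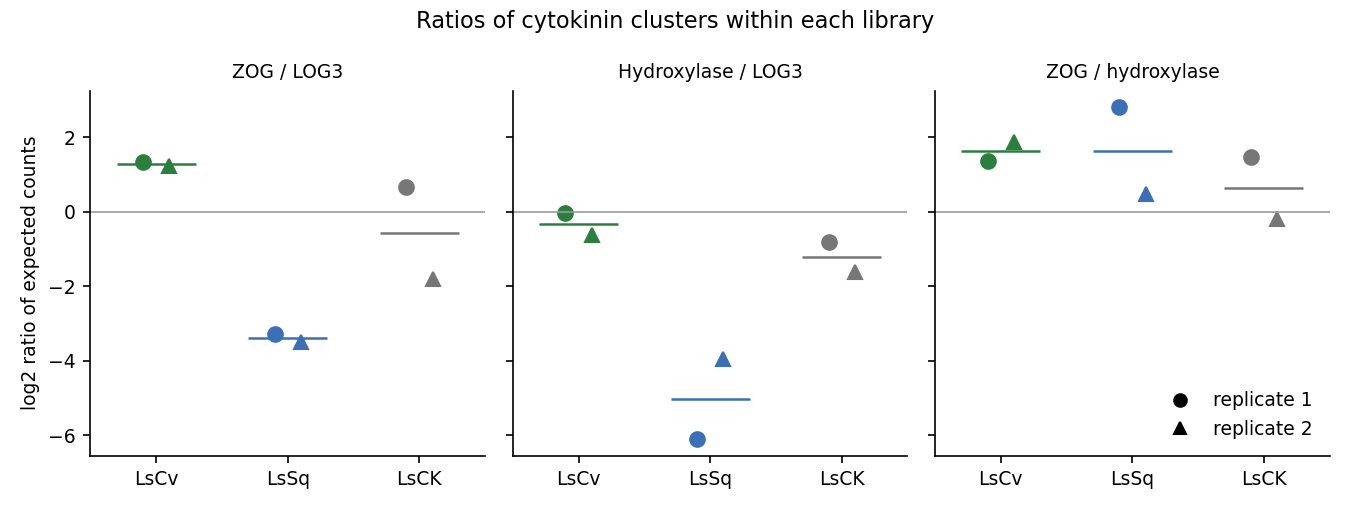
Log2 ratios of expected counts (vertical axis, 0.5 counts added to each) for 3 pairs of cytokinin clusters within each LsCv, LsSq and LsCK library. Circles are replicate 1, triangles replicate 2 and lines group means; ZOG over LOG3 was 1.32 and 1.22 in LsCv, -3.30 and -3.49 in LsSq, and 0.67 and -1.82 in LsCK.

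Over the 6 libraries, the levels of LOG3 and CKI1 ran together and opposite to those of CYP735A and ZOG. Pearson's r of log2(CPM + 0.5) was 0.84 between LOG3 and CKI1 and 0.81 between CYP735A and ZOG, while it was -0.82 between LOG3 and ZOG, -0.76 between LOG3 and CYP735A, -0.77 between CKI1 and ZOG and -0.48 between CKI1 and CYP735A. IPT3 had an r of -0.83 with CYP735A, and ARR-B stayed between -0.42 and 0.36 with the others. These r describe 6 libraries in 3 groups, and all but ARR-B were chosen for their difference between the extracts.

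Among 16 other hormone clusters that the study names, LOG3 was most like the peptide receptor EMS1/MSP1 (r = 0.97) and CKI1 most like the epidermal patterning factor EPF/EPFL (r = 0.97). ZOG and CYP735A were both most like YUCCA5, an enzyme of auxin synthesis (r = 0.83 and 0.51), IPT3 was most like the phytosulfokine receptor PSKR1 (r = 0.85), and ARR-B most like the abscisic acid receptor PYL4-like (r = 0.78). The study lists the first 4 of these clusters, like the cytokinin clusters paired with them, for a difference between the extracts. It lists PYL4-like, as ARR-B, for a difference from LsCK. Of the 16 clusters, 9 were listed for a difference from LsCK. The other 7 were listed for a difference between the extracts, which shares the treated libraries with the comparisons against LsCK. The values of all 16 against LsCK are therefore a description from which nothing is read. The 16 had a median log2 fold change of -1.15 in LsCv versus LsCK, with 0 higher and 6 lower at an unadjusted p under 0.05 in edgeR. Of all clusters 8.73% passed there (6.34% lower and 2.39% higher). In LsSq versus LsCK the median was -1.08, with 1 higher and 1 lower, where 4.65% of all clusters passed (2.43% lower and 2.23% higher). For these 16 clusters no values without LsCK replicate 2 are given.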

How the data were processed

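RNA of lettuce leaves was sequenced in 6 libraries, 2 per group, grouped by the titles in the labels. The authors assembled the reads with Trinity, grouped transcripts into clusters with Corset, counted reads with RSEM and deposited expected counts per cluster and library, without normalization. The 6 cytokinin clusters and the 16 other hormone clusters are those that the study's lists of deregulated hormone genes name, and members and lists were chosen with earlier results of these data known. For each member the text names the hormone cluster with the highest Pearson's r.

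After rounding, the expected counts went into edgeR 4.0.16 under R 4.3.3 (filterByExpr, TMM, glmQLFit, glmQLFTest, prior count 0.125) in 1 fit of all libraries, with Benjamini-Hochberg adjustment over 28157 clusters and a threshold of 0.05. Each SE is the size of the log2 fold change over the square root of the quasi-likelihood F, since edgeR's test returns no standard error. CPM were computed from the unrounded counts over the TMM-scaled totals of the tested clusters. DESeq2 1.42.0 was an alternative, besides other scalings and filters, robust estimation, fits of the groups compared, a block and each library left out. Code was tested on simulated data. The detection floor of 3 counts corresponds to 0.0858 to 0.111 CPM, and totals of 26408716 to 35184764 counts stand behind these values. Plots used matplotlib 3.10.9 (Python 3.11.15).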

Additional observations from a re-analysis of the deposited data

Results flagged for a closer look

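ZOG and the cytokinin hydroxylase CYP735A lay on opposite sides of LsCK in the libraries of the extracts: both LsCv libraries were above both LsCK libraries, and both LsSq libraries below them. Of all tested clusters, 36.6% were apart in LsCv versus LsCK (15.9% higher) and 38.6% in LsSq versus LsCK (17.1% lower). These shares hold for each comparison alone. The share of all clusters with both extracts apart from LsCK on opposite sides is not given, so the joint pattern has no base rate here. LsCv replicate 1 was within counting error of a control. For ZOG it had 11.8 CPM, inside the Poisson interval of LsCK replicate 1 (10.0 to 12.2 CPM). For CYP735A it had 4.55 CPM, inside that of LsCK replicate 2 (3.67 to 5.24 CPM). The log2 fold changes in LsCv versus LsCK and LsSq versus LsCK were 1.18 and -1.95 for ZOG and 0.34 and -2.46 for CYP735A. In LsCv versus LsCK edgeR's adjusted p was 0.595 for ZOG and 0.885 for CYP735A, and in LsSq versus LsCK it was 0.962 for both. The difference between these fold changes is the comparison of LsCv with LsSq, on which both clusters were chosen and in which edgeR called neither and DESeq2 both, so it was not tested independently of the choice.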

How the results depend on the processing

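The clusters of the cytokinin pathway passed an adjusted p of 0.05 in 0 cases with edgeR under each scaling, filter and fit tried with both libraries of each group. In edgeR's fits of only the groups compared, IPT3 was not among the tested clusters for LsCv versus LsCK and LsCv versus LsSq, so that it could not be called there. DESeq2 called 3 and 5 of the cytokinin clusters in LsCv versus LsSq with all 6 libraries and with those compared. Over all clusters DESeq2 called 437 and 223 in LsCv versus LsCK, 140 and 174 in LsSq versus LsCK, and 1488 and 2832 in LsCv versus LsSq, each time with all 6 libraries first and then with those compared. With each library left out, edgeR called 0 to 188 clusters in LsCv versus LsCK, the 188 without LsCK replicate 1, and 0 in the other comparisons. With a library left out, log2 fold changes whose sign turned ranged from -1.12 to 0.012 for LOG3 and from -0.076 to 2.69 for ARR-B in LsCv versus LsCK, from -1.12 to 3.74 for IPT3, from -0.87 to 1.17 for CKI1 and from -0.10 to 2.36 for ARR-B in LsSq versus LsCK, and from -0.73 to 0.91 for ARR-B in LsCv versus LsSq. Where a group kept 1 library, that library is assumed to vary like the others. The replicate numbers carry no stated batch. Deviations of same-numbered libraries correlated at 0.22 to 0.26 across clusters, and with the replicate number as a block edgeR called 0 clusters in each comparison, while CKI1 in LsSq versus LsCK was at 0.18 in place of -0.16. Without scaling beyond totals the median log2 fold change of all clusters was -0.20 in both LsCv versus LsCK and LsCv versus LsSq, and no cytokinin cluster changed sign. The cause of these changes was not tested. Low counts limit IPT3 most, since 3 counts are the floor in LsCv.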
